A study of Homo sapiens with 12 samples.

Results

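The proteasome genes of LM2 cells were followed through 2 knockdown experiments. The members were the gene symbols made of PSMA to PSMF and a number, without PSMB8 and PSMB9, and the rule found 42 of the 24556 different symbols in the deposited table. The count covered 8 genes of the alpha ring, 9 of the beta ring, 6 ATPases, 3 other subunits of the base, 8 subunits of the lid, 3 assembly chaperones, 4 activators and 1 inhibitor. The last 3 of these classes act on the proteasome without being fixed parts of it, so the set was wider than the word subunit. Of the 42 members, 40 averaged 1 FPKM or more across the 12 libraries and were tested. PSMA8, the alpha subunit of testis, was listed at 0 in all 12 libraries. PSMB11, the beta subunit of the thymus, was listed at 0 except for a single value of 0.174 FPKM in the EZH2 shRNA group.

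LM2 was selected for colonising the lung from MDA-MB-231, a human line of triple-negative breast cancer. RNA of 12 libraries was sequenced in 4 groups of 3: LM2 cells transfected with a small interfering RNA (siRNA) against ZRANB1, LM2 cells transfected with a scramble siRNA, LM2 cells transduced with a short hairpin RNA (shRNA) against EZH2, and LM2 cells transduced with a scramble shRNA. ZRANB1 belongs to the OTU deubiquitinases and EZH2 is the histone H3 methyltransferase of Polycomb repressive complex 2. All groups shared the line and the culture medium. The number of siRNA or shRNA sequences, the vector and its promoter, and the time between delivery and harvest were not given in the sources used here. Nothing in the labels shows whether the 3 libraries of a group were grown as separate cultures; the p-values measure the spread of these samples alone, and this spread may be technical.

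The proteasome degrades proteins that carry ubiquitin chains. Its core particle (20S) is a barrel of alpha rings, which gate the entrance, and beta rings, in which PSMB5, PSMB6 and PSMB7 hold the chymotrypsin-like, caspase-like and trypsin-like active sites. The regulatory particle (19S) has a base, whose PSMC ATPases unfold substrates, and a lid, where PSMD14 removes ubiquitin. In cells exposed to interferon gamma, PSMB8, PSMB9 and PSMB10 replace PSMB5, PSMB6 and PSMB7, and the activator of PSME1 and PSME2 joins the core; this immunoproteasome makes peptides for MHC class I. The standard subunits are held at matched amounts, and in human cells the transcription factor NFE2L1 raises their genes together when degradation is inhibited. Cancer cells, including triple-negative breast cancer lines, are known to depend on proteasome activity.

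Values were FPKM, fragments scaled by transcript length and library size, so levels of different genes can be compared with each other. In a bulk sample, fewer cells making a transcript and less of it per cell cannot be told apart. Wherever the 3 values of a group differed, the table listed them sorted as text is sorted. No column can therefore be followed as a library from gene to gene, and values are given here from low to high within a group. The table held no counts and the depth was unknown. EZH2 had 16.1, 16.1 and 17.3 FPKM with the EZH2 shRNA against 34.2, 35.6 and 36.3 with the scramble shRNA, a fall to 46.6% (log2 fold change -1.06 ± 0.0687, adjusted p = 1.34e-05). EZH2 also had 28.3, 30.4 and 32.4 FPKM with the ZRANB1 siRNA against 46.5, 48.7 and 50.6 with the scramble siRNA (log2 fold change -0.66 ± 0.0687, adjusted p = 5.43e-05). ZRANB1 itself had 9.05, 9.49 and 11.5 FPKM in the libraries labelled ZRANB1 siRNA against 10.5, 11.5 and 12.1 with the scramble siRNA, and the values overlapped (log2 fold change -0.17 ± 0.112, adjusted p = 0.349). The RNA therefore does not check that label, and directions in those libraries are given by the label only. Of the 3 mesenchymal markers of this line, VIM and AXL were high in all groups, with VIM at 2573 to 2836 FPKM, and CD44 had means of 206 FPKM with the ZRANB1 siRNA, 118 with the scramble siRNA, 261 with the EZH2 shRNA and 264 with the scramble shRNA. CD44 and AXL were called between the controls. With the ZRANB1 siRNA, 1 of the 3 was called higher and 1 lower, and none was called with the EZH2 shRNA. The 5 luminal markers summed to 12.4 FPKM with the ZRANB1 siRNA, 12.5 with the scramble siRNA, 9.35 with the EZH2 shRNA and 10.7 with the scramble shRNA. PGR was listed at 0 in all groups, and ESR1 and FOXA1 were too low to be tested. The other 2 luminal markers were both called between the controls, GATA3 lower and EPCAM higher with the scramble siRNA. With the EZH2 shRNA, 1 of these 2 was called lower, and neither was called with the ZRANB1 siRNA. The 5 blood and endothelial markers used summed to 0.757 FPKM with the ZRANB1 siRNA, 0.357 with the scramble siRNA, 1.18 with the EZH2 shRNA and 1.67 with the scramble shRNA. Most of these sums was PECAM1, 0 of the 5 was tested, and CD3E was at 0 in 3 of 4 groups. The 4 fibroblast markers, of which 1 (COL1A1) was tested, summed to 17.8 FPKM with the ZRANB1 siRNA, 8.83 with the scramble siRNA, 20.1 with the EZH2 shRNA and 25.3 with the scramble shRNA. These last 2 sums had the order of groups of PSMB10 below, COL1A1 was called in the same direction as PSMB10 in the ZRANB1 and control comparisons, and the part of other cells in these results was not tested.

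Promoter sequence was read for the 4 members that carried most of the findings below: PSMB10, PSME1 and PSME2, which interferon gamma raises, and PSMD9, the assembly chaperone that differed most between the controls in the upward direction. The sequences are the 250 bases before the annotated start in RefSeq on the build GRCh38.p14, 5′ to 3′ on the gene's strand; they are not from these cells. Capitals mark matches to 2 motifs searched on both strands. They are the interferon-stimulated response element, searched as GAAA, any 2 bases and GAAA, and the antioxidant response element, searched as TGACNNNGC, which NFE2L1 and NFE2L2 bind.
PSMB10, chr16:67936851-67937100, minus strand: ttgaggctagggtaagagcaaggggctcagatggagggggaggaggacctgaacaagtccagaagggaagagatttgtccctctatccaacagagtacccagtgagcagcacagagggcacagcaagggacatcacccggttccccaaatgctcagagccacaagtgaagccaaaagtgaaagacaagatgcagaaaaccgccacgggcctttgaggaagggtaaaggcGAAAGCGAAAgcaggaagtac
PSME2, chr14:24146611-24146860, minus strand: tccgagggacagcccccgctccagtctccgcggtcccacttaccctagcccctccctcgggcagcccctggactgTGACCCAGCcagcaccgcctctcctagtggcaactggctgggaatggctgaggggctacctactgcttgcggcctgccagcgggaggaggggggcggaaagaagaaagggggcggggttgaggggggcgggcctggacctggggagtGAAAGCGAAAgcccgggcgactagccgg
PSME1, chr14:24135944-24136193, plus strand: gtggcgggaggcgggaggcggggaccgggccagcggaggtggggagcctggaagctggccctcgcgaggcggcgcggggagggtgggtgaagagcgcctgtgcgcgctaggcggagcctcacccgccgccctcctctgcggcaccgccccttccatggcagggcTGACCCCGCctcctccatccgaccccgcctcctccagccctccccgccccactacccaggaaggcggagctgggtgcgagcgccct
PSMD9, chr12:121888540-121888789, plus strand: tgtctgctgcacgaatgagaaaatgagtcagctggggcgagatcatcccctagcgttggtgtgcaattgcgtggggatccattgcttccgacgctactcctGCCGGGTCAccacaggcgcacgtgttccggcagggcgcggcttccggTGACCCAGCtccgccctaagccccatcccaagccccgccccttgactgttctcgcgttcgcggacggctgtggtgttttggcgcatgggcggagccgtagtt
PSMB10 held the interferon motif as GAAAGCGAAA at 21 to 12 bases before the start, and PSME2 held the same 10 letters at 28 to 19 bases. PSME2 also held the antioxidant motif at 175 to 167 bases, PSME1 held it at 86 to 78 bases, and PSMD9 held 2 matches, at 149 to 141 bases (read on the minus strand) and at 102 to 94 bases. A match is a description of letters and not a measured site. Windows were found for 37 of the 42 members (44 windows), and PSMA7, PSMB1, PSMB6, PSMB7 and PSMD4 had none in the table used. The interferon motif stood in the windows of 4 members (PSMA4, PSMB4, PSMB10 and PSME2), 9.09% of member windows against 3.02% of all 35116 windows of the same length. The antioxidant motif stood in 22.7% of member windows against 10.9% of all windows. The gamma-activated site, searched as TTCNNNGAA, stood in 13.6% against 6.57%. Its 6 member genes were PSMA2, PSMA8, PSMB5, PSMC4, PSMD3 and PSME3, and none of the 4 sequences above held it. The member shares of the interferon, antioxidant and gamma-activated motifs rest on 4, 10 and 6 of 44 windows. All 3 motifs were more frequent in member windows, so the excess was not particular to the interferon motif. Repeated windows were removed for the members only. The marked matches do not overlap one another.

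Counts over the 3 comparisons differed widely, and most of the called members were in the comparison of the controls. Calls were made at adjusted p-values below 0.05 in limma, adjusted over all 11929 genes tested. With the EZH2 shRNA, 2 of the 40 members were called against the scramble shRNA, both lower (PSMD7 and PSME1); of all genes tested, 6.41% were called, 3.39% higher and 3.03% lower. No member was called higher by limma, where 2 had an unadjusted p below 0.05 with a positive fold change, and 11 had one with a negative fold change. Among all 11929 genes tested, 1207 had such a p with a positive and 1351 with a negative fold change. With the ZRANB1 siRNA, 5 of the 40 were called against the scramble siRNA, 4 of them higher (PSMB10, PSMD2, PSME2 and PSMB7) and PSMD9 lower; of all genes, 16.6% were called, 10.1% higher and 6.5% lower. With the scramble siRNA, 23 of the 40 were called against the scramble shRNA, 12 higher and 11 lower; of all genes, 50.6% were called, 25.5% higher and 25.1% lower. The members' shares of 5%, 12.5% and 57.5% lay near these backgrounds and are no result about the members. The control comparison shares the scramble siRNA libraries with the ZRANB1 comparison and the scramble shRNA libraries with the EZH2 comparison. It also joins all differences between transfection and transduction, and any difference in handling, which cannot be told apart.

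**Figure D1:**
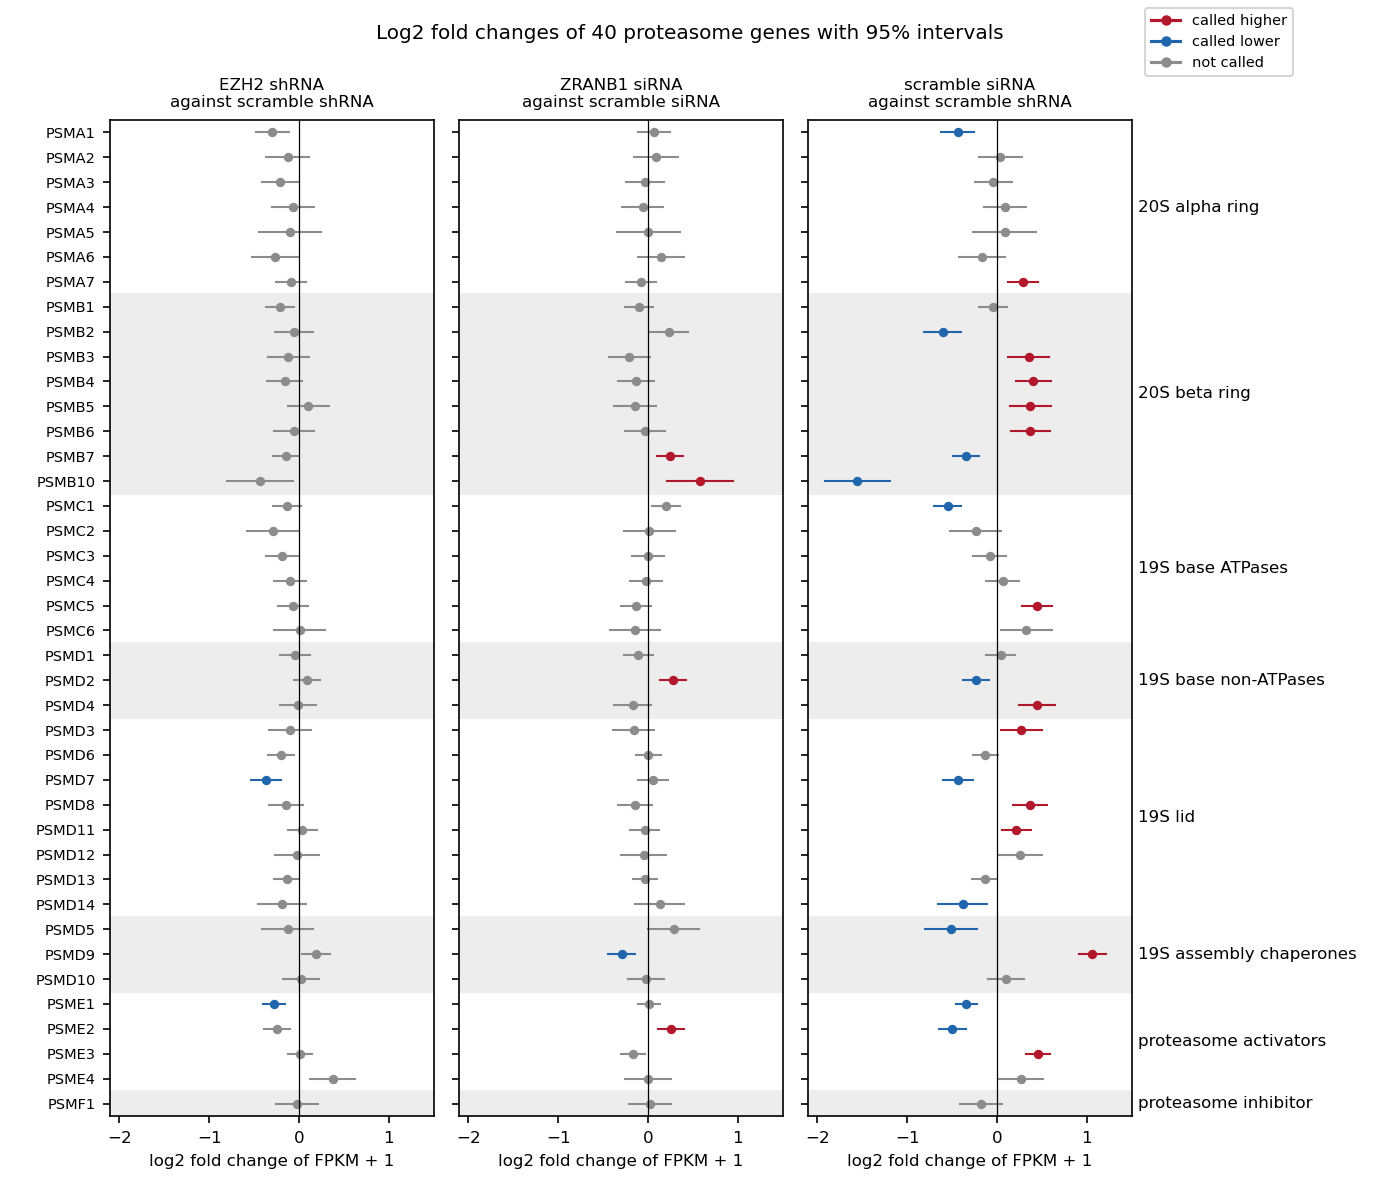
Log2 fold changes of FPKM + 1 for the 40 tested proteasome genes, one row each and shaded by class, in the EZH2, ZRANB1 and control comparisons; points are estimates, bars are 95% intervals, and red and blue mark genes called higher and lower. The first panel has 2 called genes, the second 5 and the third 23, with PSMD9 farthest to the right and PSMB10 farthest to the left in the control panel.

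In the alpha ring, 1 of 7 tested genes rose and 1 fell between the controls, where 50.6% of all genes tested were called. None of the 7 was called in a knockdown comparison, against 6.41% of all genes with the EZH2 shRNA and 16.6% with the ZRANB1 siRNA. PSMA7, the most abundant member of the ring and of the whole set, had 417, 462 and 469.6 FPKM with the ZRANB1 siRNA, 436, 476 and 515 with the scramble siRNA, 339.5, 373 and 380.3 with the EZH2 shRNA and 372, 396 and 397 with the scramble shRNA. PSMA5, its least abundant member, had 28.7, 35.7 and 40.8 FPKM with the ZRANB1 siRNA, 31.5, 31.8 and 41.3 with the scramble siRNA, 27.5, 28.1 and 36 with the EZH2 shRNA and 28.4, 32 and 37.8 with the scramble shRNA. PSMA7 was 123% of the scramble shRNA mean with the scramble siRNA, without overlap, and rose in that comparison (log2 fold change 0.29 ± 0.0766, adjusted p = 0.008), whereas PSMA5 overlapped in all comparisons and was not called in any. PSMA1 had 148, 153 and 169 FPKM with the ZRANB1 siRNA, 143, 146 and 159 with the scramble siRNA, 155, 164 and 176 with the EZH2 shRNA and 184, 208 and 216 with the scramble shRNA. All 3 scramble shRNA values of PSMA1 were above all of the other 9. It fell with the scramble siRNA (log2 fold change -0.44 ± 0.0832, adjusted p = 0.00105) and was not called with the EZH2 shRNA (log2 fold change -0.30 ± 0.0832, adjusted p = 0.0584). All 7 tested alpha genes had a negative fold change with the EZH2 shRNA, from -0.30 to -0.066 on the log2 scale. None was called (limma, 2 of 7 at an unadjusted p below 0.05, against 2558 of all 11929 genes tested). With the ZRANB1 siRNA none of the 7 was called and none had an unadjusted p below 0.05, against 3516 of all 11929 genes tested.

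In the beta ring, 7 of 8 tested genes were called between the controls, 4 higher and 3 lower with the scramble siRNA, where 50.6% of all genes were called. PSMB4, a structural subunit without an active site and the most abundant of the ring, had 318, 347 and 364 FPKM with the ZRANB1 siRNA, 349, 367 and 412 with the scramble siRNA, 239, 241 and 282 with the EZH2 shRNA and 263, 289.8 and 297 with the scramble shRNA. It rose to 133% with the scramble siRNA (log2 fold change 0.41 ± 0.09, adjusted p = 0.00292). PSMB2, another structural subunit and the least abundant, had 29.99, 30.9 and 34.3 FPKM with the ZRANB1 siRNA, 24.3, 27.9 and 28.1 with the scramble siRNA, 36.7, 38.3 and 44.2 with the EZH2 shRNA and 37.5, 42.4 and 44 with the scramble shRNA. It fell to 64.8% (log2 fold change -0.61 ± 0.096, adjusted p = 0.000289), and in both genes the siRNA control did not overlap the shRNA control. Neither was called in a knockdown comparison.

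The constitutive active-site genes parted in the control comparison. PSMB5, the chymotrypsin-like subunit, had 122, 129 and 131 FPKM with the ZRANB1 siRNA, 132, 142 and 149 with the scramble siRNA, 98.1, 118 and 138 with the EZH2 shRNA and 105, 108 and 112 with the scramble shRNA. PSMB6, the caspase-like subunit, had 193, 209 and 219.6 FPKM with the ZRANB1 siRNA, 191, 211 and 233 with the scramble siRNA, 138, 157 and 179.8 with the EZH2 shRNA and 157, 166 and 166 with the scramble shRNA. Both were higher with the scramble siRNA without overlap, PSMB5 at 129.9% (log2 fold change 0.37 ± 0.105, adjusted p = 0.0113) and PSMB6 at 130.1% (log2 fold change 0.37 ± 0.101, adjusted p = 0.00933), and neither was called in a knockdown comparison. PSMB7, the trypsin-like subunit, had 124, 127 and 134 FPKM with the ZRANB1 siRNA, 107, 109 and 109 with the scramble siRNA, 116, 126 and 133 with the EZH2 shRNA and 134, 135 and 144 with the scramble shRNA. Its scramble siRNA values were below all of the other 9. PSMB7 fell to 78.7% in the scramble siRNA libraries relative to the scramble shRNA libraries (log2 fold change -0.34 ± 0.0657, adjusted p = 0.00112) and was 119% of the scramble siRNA mean in the libraries labelled ZRANB1 siRNA (log2 fold change 0.24 ± 0.0657, adjusted p = 0.0268). The call with the ZRANB1 siRNA was lost when any of 5 of the 6 values compared was left out, with an adjusted p of up to 0.1002. GENCODE 29 names 1 pseudogene after PSMB7, whose reads may be shared with it.

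PSMB10, the immunoproteasome counterpart of PSMB7, varied most of the 40 tested members by the ratio of its highest to its lowest group mean (2.93 on the scale of FPKM + 1). It had 27.8, 35 and 35.7 FPKM with the ZRANB1 siRNA, 17.7, 23.4 and 24.1 with the scramble siRNA, 38.9, 47.2 and 59.95 with the EZH2 shRNA and 57.3, 69.5 and 69.6 with the scramble shRNA. The order of the groups was scramble shRNA, EZH2 shRNA, ZRANB1 siRNA and scramble siRNA from high to low, and only the EZH2 shRNA and scramble shRNA groups overlapped. The scramble siRNA mean was 33.2% of the scramble shRNA mean (log2 fold change -1.55 ± 0.167, adjusted p = 1.46e-05). The ZRANB1 siRNA mean was 151% of the scramble siRNA mean (log2 fold change 0.58 ± 0.167, adjusted p = 0.0354). This second call was lost with genes below 1 FPKM kept in the test (adjusted p = 0.0591) and with any of 4 of the 6 values compared left out (adjusted p up to 0.1325). With the EZH2 shRNA the log2 fold change was -0.44 ± 0.167, adjusted p = 0.158, the largest in size of the 40 in that comparison and not called.

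PSMB8 and PSMB9, the other immunoproteasome subunits, stand outside the rule and are given beside PSMB10. PSMB8 had 34.1, 35.6 and 36.3 FPKM with the ZRANB1 siRNA, 19.9, 20.2 and 23.9 with the scramble siRNA, 40.8, 43.7 and 51.6 with the EZH2 shRNA and 49.5, 51.6 and 54.4 with the scramble shRNA. PSMB9 had 8.83, 11.1 and 11.2 FPKM with the ZRANB1 siRNA, 2.53, 3.81 and 3.94 with the scramble siRNA, 17.1, 17.6 and 23.6 with the EZH2 shRNA and 21.2, 22.6 and 24.5 with the scramble shRNA. Both showed the same order of groups as PSMB10, with the lowest values in the scramble siRNA libraries and no overlap between those and any other group. PSMB8 had a log2 fold change of -1.25 ± 0.0958, adjusted p = 9.87e-07, with the scramble siRNA against the scramble shRNA, and of 0.71 ± 0.0958, adjusted p = 0.00041, with the ZRANB1 siRNA against the scramble siRNA. For PSMB9 these were -2.44 ± 0.152, adjusted p = 1.88e-07, and 1.37 ± 0.152, adjusted p = 9.05e-05. As a share of PSMB7, PSMB10 was 25.6% with the ZRANB1 siRNA, 20.1% with the scramble siRNA, 39.0% with the EZH2 shRNA and 47.6% with the scramble shRNA. PSMB8 as a share of PSMB5 was 27.7%, 15.1%, 38.4% and 47.7% in the same order of groups, and PSMB9 as a share of PSMB6 was 5.02%, 1.62%, 12.3% and 14.0%. These ratios of group means have no SD, since the values of 2 genes could not be matched by library. Each of these 2 genes stood on 8 rows, of which 7 were listed at 0, and the row with values was used.

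**Figure D2:**
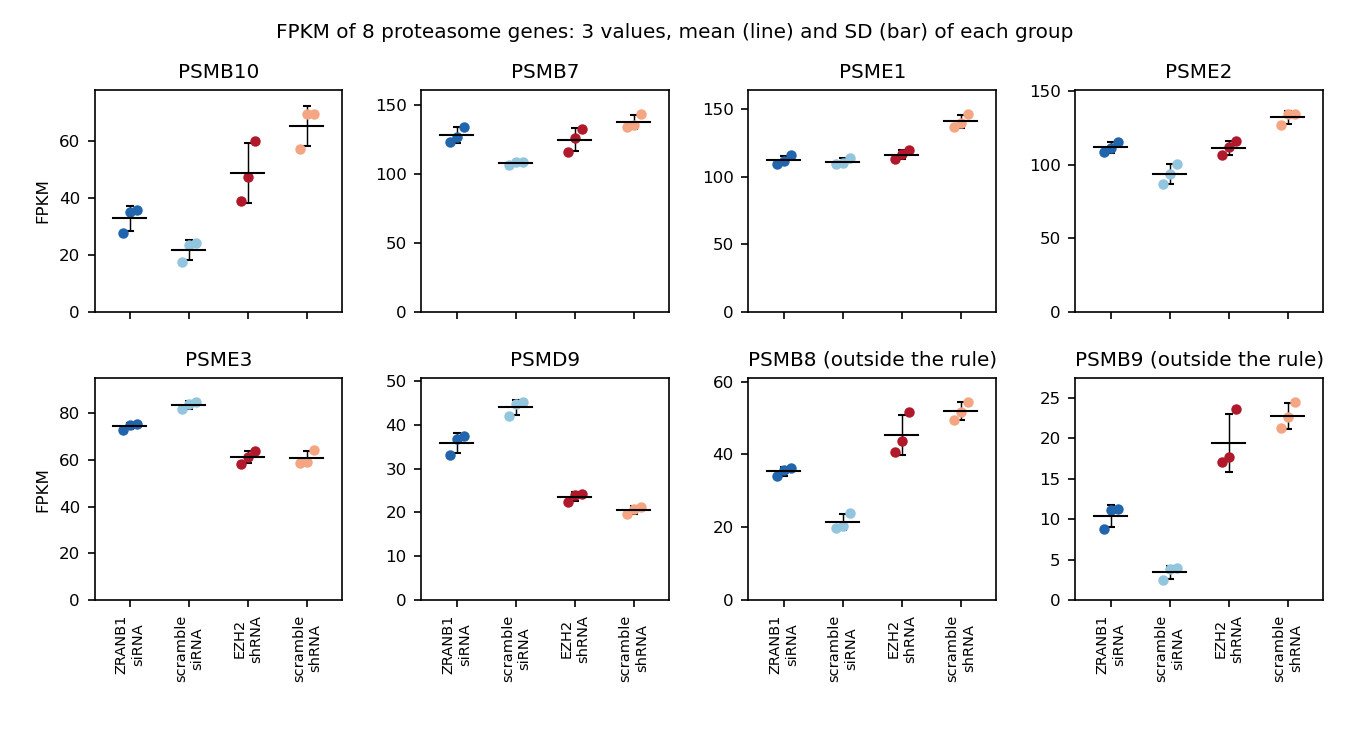
FPKM of PSMB10, PSMB7, PSME1, PSME2, PSME3 and PSMD9, and of PSMB8 and PSMB9 from outside the rule, in the ZRANB1 siRNA, scramble siRNA, EZH2 shRNA and scramble shRNA groups; dots are the 3 values, lines the mean and bars the SD. PSMB10, PSMB8 and PSMB9 are lowest with the scramble siRNA and highest on average with the scramble shRNA, whereas PSMD9 and PSME3 are highest with the scramble siRNA.

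The activators that bind the ends of the core differed in kind. PSME1, which forms the interferon-inducible cap with PSME2, had 109.8, 112 and 116 FPKM with the ZRANB1 siRNA, 109.8, 109.9 and 114 with the scramble siRNA, 113, 117 and 119.5 with the EZH2 shRNA and 137, 139.6 and 147 with the scramble shRNA. The 3 scramble shRNA values stood above all of the other 9. PSME1 fell to 82.6% with the EZH2 shRNA (log2 fold change -0.27 ± 0.0557, adjusted p = 0.0154) and to 78.9% with the scramble siRNA (log2 fold change -0.34 ± 0.0557, adjusted p = 0.000375), and was not called with the ZRANB1 siRNA (log2 fold change 0.015 ± 0.0557, adjusted p = 0.897). The call with the EZH2 shRNA was lost with only the 6 values compared (adjusted p = 0.0940), without small RNA symbols (adjusted p = 0.07645) and with 1 scramble shRNA value left out (adjusted p = 0.0647).

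PSME2 had 108, 112 and 115 FPKM with the ZRANB1 siRNA, 86.8, 93.4 and 100.1 with the scramble siRNA, 106, 112 and 116 with the EZH2 shRNA and 127, 134 and 134 with the scramble shRNA. Its scramble siRNA values were the lowest of all groups and its scramble shRNA values the highest, with no overlap in any of the 3 comparisons. PSME2 was 70.8% of the scramble shRNA mean in the scramble siRNA libraries (log2 fold change -0.50 ± 0.0672, adjusted p = 8.85e-05) and 119.6% of the scramble siRNA mean in the ZRANB1 siRNA libraries (log2 fold change 0.26 ± 0.0672, adjusted p = 0.0226). This last call was lost with only the 6 values compared (adjusted p = 0.0508) and with any of 4 of those values left out. With the EZH2 shRNA the log2 fold change of PSME2 was -0.24 ± 0.0672, adjusted p = 0.0559, and it was called when genes below 1 FPKM were kept in the test (adjusted p = 0.0469). PSME2 as a share of PSME1, its partner in the same ring, was 99.3% with the ZRANB1 siRNA, 84.0% with the scramble siRNA, 95.7% with the EZH2 shRNA and 93.6% with the scramble shRNA. The annotation names 2 pseudogenes after PSME2 and none after PSME1.

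PSME3, the related nuclear cap that interferon gamma does not raise, had 72.8, 74.9 and 75.2 FPKM with the ZRANB1 siRNA, 81.6, 84.1 and 84.7 with the scramble siRNA, 58.4, 61.1 and 63.6 with the EZH2 shRNA and 58.8, 58.9 and 64.3 with the scramble shRNA. It was highest with the scramble siRNA, without overlap with any other group, and rose to 138% of the scramble shRNA mean (log2 fold change 0.45 ± 0.0606, adjusted p = 7.95e-05). In the ZRANB1 siRNA libraries it was 89% of the scramble siRNA mean, which was not called (log2 fold change -0.17 ± 0.0606, adjusted p = 0.0896). PSME1 as a share of PSME3 was 151.4% with the ZRANB1 siRNA, 133.3% with the scramble siRNA, 190.9% with the EZH2 shRNA and 232.5% with the scramble shRNA. PSME4, a nuclear activator known in mouse testis for the breakdown of acetylated histones and the least abundant tested member, had 18.2, 20.8 and 23.2 FPKM with the ZRANB1 siRNA, 18.6, 20.2 and 23.2 with the scramble siRNA, 20.5, 21.9 and 24.9 with the EZH2 shRNA and 15.6, 16.4 and 19.1 with the scramble shRNA. The EZH2 shRNA values did not overlap the scramble shRNA values and the gene was not called (log2 fold change 0.38 ± 0.116, adjusted p = 0.0818), but it was called once small RNA symbols were left out and the rest rescaled (0.45, adjusted p = 0.0293). PSMF1, which inhibits the core in vitro, had 20.6, 20.8 and 24.9 FPKM with the ZRANB1 siRNA, 21.2, 21.6 and 22.1 with the scramble siRNA, 20.6, 25.5 and 27.1 with the EZH2 shRNA and 23.4, 23.8 and 26.9 with the scramble shRNA. It was not called in any comparison, although the scramble siRNA values lay below all scramble shRNA values.

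Of the 6 ATPases of the base, 1 rose and 1 fell between the controls and none was called in a knockdown comparison. Among all genes tested, 50.6% were called between the controls, 6.41% with the EZH2 shRNA and 16.6% with the ZRANB1 siRNA. PSMC5 had 148, 151 and 169 FPKM with the ZRANB1 siRNA, 164, 166 and 183 with the scramble siRNA, 112, 115 and 130.2 with the EZH2 shRNA and 123, 124 and 128 with the scramble shRNA. PSMC1 had 102, 102 and 105 FPKM with the ZRANB1 siRNA, 82.5, 92.8 and 94.8 with the scramble siRNA, 112, 123 and 127 with the EZH2 shRNA and 128, 132 and 137 with the scramble shRNA. The 2 genes were opposite: with the scramble siRNA PSMC5 rose to 137% (log2 fold change 0.45 ± 0.0771, adjusted p = 0.000535) and PSMC1 fell to 68.1% (log2 fold change -0.55 ± 0.0709, adjusted p = 6.01e-05), both without overlap. The annotation names 13 pseudogenes after PSMC1, more than after any other member, and reads shared with them would make its value uncertain. The most abundant ATPase gene, PSMC3, had 160.4, 175 and 186 FPKM with the ZRANB1 siRNA, 163, 169.5 and 189 with the scramble siRNA, 154, 162 and 168 with the EZH2 shRNA and 169, 189 and 194 with the scramble shRNA. The least abundant, PSMC2, had 34.2, 39.5 and 41.8 FPKM with the ZRANB1 siRNA, 36.8, 36.9 and 40.1 with the scramble siRNA, 29, 37.9 and 43.8 with the EZH2 shRNA and 43, 45.1 and 46.6 with the scramble shRNA. Neither was called in any comparison, though PSMC3 with the EZH2 shRNA and PSMC2 with the scramble siRNA did not overlap the scramble shRNA values.

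The other base genes encode scaffolds and a ubiquitin receptor. PSMD2, the more abundant of the scaffolds, had 302, 319 and 322 FPKM with the ZRANB1 siRNA, 246, 254 and 276 with the scramble siRNA, 304, 328 and 342 with the EZH2 shRNA and 296, 304 and 312 with the scramble shRNA. The scramble siRNA values were below all others. PSMD2 fell to 85.2% with the scramble siRNA relative to the scramble shRNA (log2 fold change -0.23 ± 0.0655, adjusted p = 0.0115) and was 121% of the scramble siRNA mean with the ZRANB1 siRNA (log2 fold change 0.28 ± 0.0655, adjusted p = 0.0131); without 1 of the 6 values the last call had adjusted p values of up to 0.0594. PSMD1, the other scaffold, had 47.6, 51.8 and 52.7 FPKM with the ZRANB1 siRNA, 51.1, 55.1 and 57.6 with the scramble siRNA, 49.1, 50.5 and 54.7 with the EZH2 shRNA and 49.5, 54 and 55.8 with the scramble shRNA. Its groups overlapped in each comparison and it was not called. PSMD4, the ubiquitin receptor, had 103, 116 and 117 FPKM with the ZRANB1 siRNA, 114, 126 and 139.8 with the scramble siRNA, 84.7, 92.5 and 98 with the EZH2 shRNA and 85.4, 94.5 and 96.8 with the scramble shRNA. It rose to 137% with the scramble siRNA (log2 fold change 0.45 ± 0.0928, adjusted p = 0.00186) without overlap and was not called in a knockdown comparison.

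In the lid, 3 of 8 genes rose and 2 fell between the controls, and 1 fell with the EZH2 shRNA. Among all genes tested, 50.6% were called between the controls and 6.41% with the EZH2 shRNA. PSMD7, the partner of the deubiquitinase PSMD14, had 53.4, 58.4 and 60.5 FPKM with the ZRANB1 siRNA, 53, 55.2 and 57 with the scramble siRNA, 53.4, 57.2 and 63.2 with the EZH2 shRNA and 71.6, 75.1 and 77.5 with the scramble shRNA. As with PSME1 and PSMA1, the 3 scramble shRNA values stood above all of the other 9. PSMD7 fell to 77.5% with the EZH2 shRNA (log2 fold change -0.36 ± 0.0768, adjusted p = 0.0179) and to 73.7% with the scramble siRNA (log2 fold change -0.43 ± 0.0768, adjusted p = 0.000658). The first of these calls was lost with only the 6 values compared (adjusted p = 0.0985) and with any of 3 values left out (adjusted p up to 0.0705). GENCODE 29 names 1 pseudogene after PSMD7, whose reads may be shared with it. PSMD14 itself fell with the scramble siRNA (log2 fold change -0.38 ± 0.123, adjusted p = 0.0224) and was not called in a knockdown comparison. PSMD8, the most abundant lid gene, had 130.4, 147 and 151 FPKM with the ZRANB1 siRNA, 149, 161 and 163 with the scramble siRNA, 99.8, 112 and 120.1 with the EZH2 shRNA and 115, 124 and 129.7 with the scramble shRNA. PSMD11, the least abundant, had 39.6, 42.4 and 43 FPKM with the ZRANB1 siRNA, 41, 43.1 and 44.1 with the scramble siRNA, 36.8, 37.3 and 38.9 with the EZH2 shRNA and 34.6, 35 and 40.7 with the scramble shRNA. Both rose with the scramble siRNA without overlap, PSMD8 with a log2 fold change of 0.36 ± 0.0862, adjusted p = 0.00433, and PSMD11 with 0.21 ± 0.0737, adjusted p = 0.0304; the call of PSMD11 was lost in 6 of 21 other settings and that of PSMD3, another lid gene at 0.27 ± 0.105, adjusted p = 0.0494, in 15 of 21.

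Among the chaperones that assemble the base and leave it, PSMD9 differed most. PSMD9 had 33.2, 36.9 and 37.5 FPKM with the ZRANB1 siRNA, 42.1, 44.9 and 45.2 with the scramble siRNA, 22.4, 24.1 and 24.3 with the EZH2 shRNA and 19.6, 20.9 and 21.2 with the scramble shRNA. No groups overlapped in any comparison, with the highest values in the scramble siRNA libraries and the lowest in the scramble shRNA libraries. The scramble siRNA mean was 214% of the scramble shRNA mean (log2 fold change 1.06 ± 0.0695, adjusted p = 2.68e-07), and the ZRANB1 siRNA mean was 81.3% of the scramble siRNA mean (log2 fold change -0.29 ± 0.0695, adjusted p = 0.0143). The second of these calls was lost with any of 3 of the 6 values left out (adjusted p up to 0.0629). With the EZH2 shRNA the log2 fold change was 0.19 ± 0.0695, adjusted p = 0.139, not called.

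PSMD5, the least abundant of these chaperones, had 22.9, 24.7 and 29.4 FPKM with the ZRANB1 siRNA, 17.7, 20.6 and 24.4 with the scramble siRNA, 24.9, 26.7 and 31.1 with the EZH2 shRNA and 27.1, 30.7 and 32.5 with the scramble shRNA. It fell to 69.5% with the scramble siRNA (log2 fold change -0.51 ± 0.131, adjusted p = 0.00667), the opposite of PSMD9. The table also lists an antisense gene, PSMD5-AS1, and it is not stated whether the counting used strand, so reads of the pair cannot be told apart. GENCODE 29 names no antisense gene after these chaperones. It names them after 2 other members, PSMA3 and PSMD6, for which the strand is equally unknown. PSMD10, also known as gankyrin and the most abundant of the chaperones, had 38.7, 41.4 and 44.6 FPKM with the ZRANB1 siRNA, 39.1, 42.6 and 45.4 with the scramble siRNA, 36.2, 40.1 and 43.8 with the EZH2 shRNA and 36.5, 40.3 and 41.5 with the scramble shRNA. Its groups overlapped in each comparison and it was not called.

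**Figure D3:**
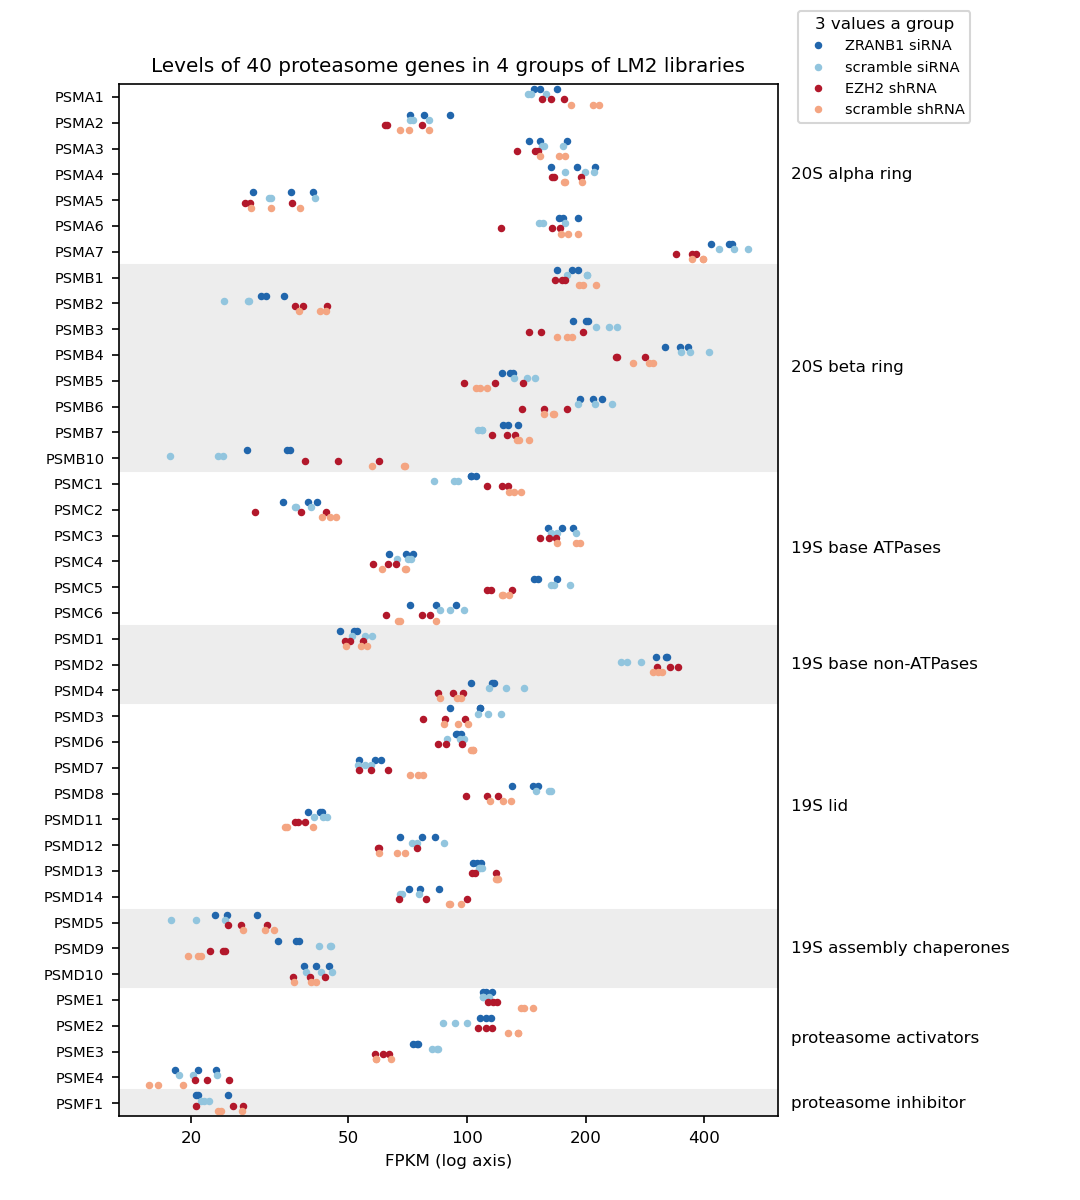
FPKM of the 40 tested proteasome genes on a log axis, one row per gene and shaded by class, with the 3 values of the ZRANB1 siRNA, scramble siRNA, EZH2 shRNA and scramble shRNA groups. Means over the 12 values run from 20.2 FPKM (PSME4) to 419.4 FPKM (PSMA7), and for most genes the groups lie close together on this scale.

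The levels of the members spanned a wide range although the particle holds most of them in equal numbers. Means over the 12 values ran from 20.2 FPKM for PSME4 to 419.4 FPKM for PSMA7, with a median of 102.6 FPKM. Within the alpha ring the most abundant gene exceeded the least abundant 12.6-fold, within the beta ring 9.0-fold and among the ATPases 4.38-fold. The 40 group means summed to 4739 FPKM with the ZRANB1 siRNA, 4795 with the scramble siRNA, 4288 with the EZH2 shRNA and 4655 with the scramble shRNA; no SD can be given for a sum over genes. The median SD within a group on the log2 scale was 0.0985 for the members and 0.126 for all genes tested.

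Differences between groups were of ordinary or small size. Between the group with the highest mean and that with the lowest, the ratio of FPKM + 1 had a median of 1.28 over the members and 1.32 over all genes tested, and its 90th percentile was 1.46 over the members and 2.09 over all genes. With the scramble siRNA against the scramble shRNA, 3 of 40 members (7.5%) had a log2 fold change of 0.58 or more in size (PSMB10, PSMD9 and PSMB2), against 24.2% of all genes tested. With the ZRANB1 siRNA and with the EZH2 shRNA, 0 of 40 reached that size, against 6.78% and 3.13% of all genes tested. PSMB10 with the ZRANB1 siRNA lay just under it, at 0.5778. Mean levels were not matched between the members and all genes in these shares.

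**Figure D4:**
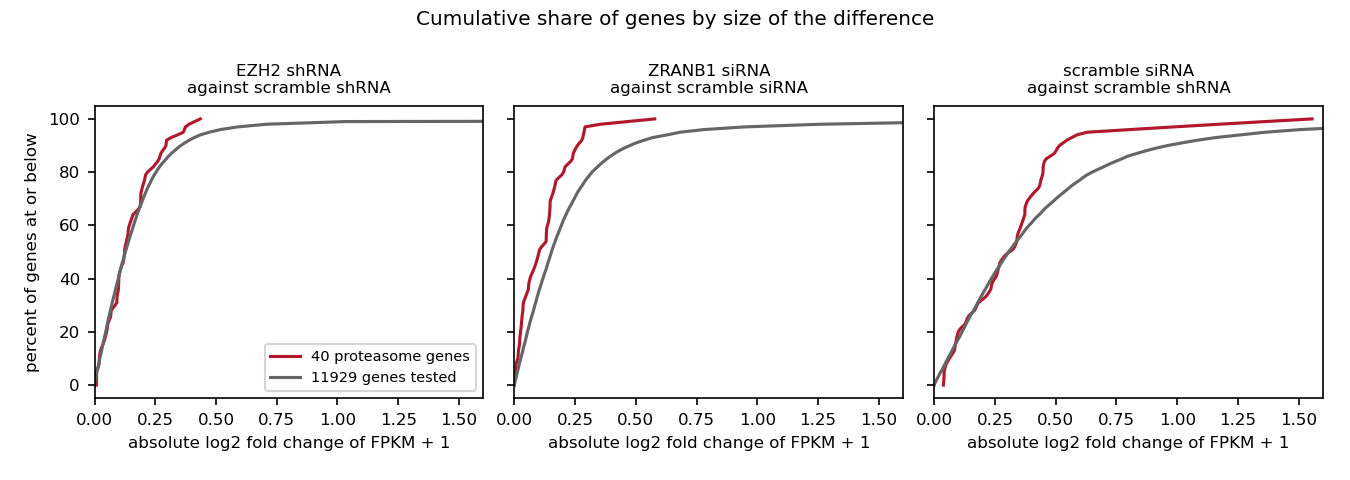
Cumulative percent of genes at or below an absolute log2 fold change, for the 40 proteasome genes (red) and the 11929 genes tested (grey), in the EZH2, ZRANB1 and control comparisons. The red line lies to the left of the grey line at the upper end of each panel; in the control panel both have a median near 0.31 and the 90th percentiles are 0.52 and 0.96.

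With the EZH2 shRNA most members had a slightly lower mean. The log2 fold change was negative in 32 of 40 members and positive in 8, with a median of -0.11, and it was negative in 6328 and positive in 5541 of all genes tested, with a median of -0.014. Its range was -0.44 to 0.38. The EZH2 shRNA group had the lowest of the 4 group means in 19 of 40 members (47.5%), against 27.9% of all genes tested. The values of the groups did not overlap in 14 members, and in 22.1% of all genes. As a FPKM value depends on the rest of the library, leaving out small RNA symbols and rescaling moved the median to -0.033 for the members and to 0.054 for all genes tested. In that setting 1 member was called lower (PSMD7) and 1 higher (PSME4).

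With the ZRANB1 siRNA the members had a median log2 fold change of -0.024, against -0.017 for all genes, and a range of -0.29 to 0.58. The fold change was positive in 17 members and negative in 23. The groups did not overlap in 10 members, and in 36.4% of all genes. The ZRANB1 siRNA group had the highest mean in 2 of 40 members (5%) and the lowest in 2 (5%), against 7.83% and 11.14% of all genes tested. With the scramble siRNA against the scramble shRNA the median was 0.039, against 0.011 for all genes, and the range was -1.55 to 1.06; the groups did not overlap in 29 members, and in 59.9% of all genes. The scramble siRNA group had the highest mean in 18 of 40 members (45%) and the lowest in 12 (30%), against 40.1% and 36.3% of all genes tested. Without PSMB10, PSME1 and PSME2, the members that interferon gamma raises, 1 of 37 was called with the EZH2 shRNA, 3 of 37 with the ZRANB1 siRNA and 20 of 37 between the controls, against 6.41%, 16.6% and 50.6% of all genes tested, and these counts are no result about the 37.

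The 2 knockdown effects were compared by the difference of the log2 fold changes, ZRANB1 siRNA against scramble siRNA minus EZH2 shRNA against scramble shRNA, which share no library. In 6 of 40 members (15%) the difference was called, 5 positive and 1 negative, against 10.5% of all genes tested, 6.91% positive and 3.58% negative. The difference was positive for PSMB10 (1.01 ± 0.236, adjusted p = 0.0179), PSME2 (0.50 ± 0.095, adjusted p = 0.006), PSMD7 (0.42 ± 0.109, adjusted p = 0.0294), PSMB7 (0.38 ± 0.0928, adjusted p = 0.0222) and PSME1 (0.29 ± 0.0787, adjusted p = 0.0386). It was negative for PSMD9 (-0.48 ± 0.0982, adjusted p = 0.00884). Of these, 3 are genes of the interferon-inducible forms. The difference of PSME1 was lost in 14 of 19 other settings, that of PSMD7 in 9 and that of PSMB7 in 4, while those of PSMB10, PSME2 and PSMD9 were called in all 19.

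Genes that control transcription of proteasome genes were read from the same fit. IRF1, the interferon-induced factor that acts on immunoproteasome promoters, had 13.2, 13.6 and 14.5 FPKM with the ZRANB1 siRNA, 7.07, 7.43 and 7.53 with the scramble siRNA, 19.6, 19.7 and 19.9 with the EZH2 shRNA and 22.3, 22.5 and 22.9 with the scramble shRNA. Its groups had the order seen for PSMB10, with a log2 fold change of 0.82 ± 0.0579, adjusted p = 2.07e-06, with the ZRANB1 siRNA against the scramble siRNA, and of -1.50 ± 0.0579, adjusted p = 4.14e-09, between the scramble siRNA and the scramble shRNA. NFE2L1 had 56.9, 60.2 and 63.8 FPKM with the ZRANB1 siRNA, 50.2, 55.9 and 56.2 with the scramble siRNA, 64.3, 71.8 and 72.4 with the EZH2 shRNA and 76.6, 80.6 and 81.1 with the scramble shRNA. It fell with the scramble siRNA relative to the scramble shRNA (log2 fold change -0.55 ± 0.0741, adjusted p = 8.82e-05) and was not called in a knockdown comparison. The small MAF gene MAFK, whose product pairs with NFE2L1, rose with the EZH2 shRNA (log2 fold change 0.53 ± 0.121, adjusted p = 0.0257). MAFK also rose with the ZRANB1 siRNA (0.68 ± 0.121, adjusted p = 0.00272) and fell in the control comparison (-0.82 ± 0.121, adjusted p = 0.000173), which share the scramble siRNA libraries. MAFF, another small MAF gene, had means of 26.2 FPKM with the ZRANB1 siRNA, 16.35 with the scramble siRNA, 38.89 with the EZH2 shRNA and 35.87 with the scramble shRNA. VCP, the ATPase that extracts NFE2L1 from the endoplasmic reticulum, fell with the EZH2 shRNA (log2 fold change -0.29 ± 0.0528, adjusted p = 0.00885). Of the 10 tested genes of this list, 1 rose and 1 fell with the EZH2 shRNA, 3 rose with the ZRANB1 siRNA, and 1 rose and 4 fell between the controls, where 6.41%, 16.6% and 50.6% of all genes tested were called. The part of these genes in the results for the members was not tested.

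The 2 proteasome subunits whose symbols fall outside the rule, ADRM1 and SHFM1, were not called in any comparison. ADRM1, another ubiquitin receptor, had 175, 209.5 and 236 FPKM with the ZRANB1 siRNA, 177, 217 and 241 with the scramble siRNA, 158, 201 and 222 with the EZH2 shRNA and 168, 219 and 226 with the scramble shRNA. Of the 5 chaperones of the core particle, PSMG1 fell with the ZRANB1 siRNA (log2 fold change -0.28 ± 0.0845, adjusted p = 0.0407), none was called with the EZH2 shRNA (limma; 0 of 5 at an unadjusted p below 0.05), and PSMG4 and PSMG1 rose with the scramble siRNA relative to the scramble shRNA (log2 fold changes of 0.60 ± 0.141, adjusted p = 0.00396, and 0.25 ± 0.0845, adjusted p = 0.0277). In these comparisons, in the same order, 16.6%, 6.41% and 50.6% of all genes tested were called.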

How the data were processed

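RNA-seq expression of 12 LM2 libraries was deposited by the authors as 1 table of FPKM values with 26006 gene rows. The submitters' processing notes name hg19 as the build and list TopHat2 (2.1.1), Cufflinks (2.2.1), Cuffdiff (2.2.1) and SAMtools; their options, the annotation and the strand setting were not given in the sources used here. Groups were taken from the labels and columns from their names. Of rows with the same symbol the one with the highest mean was kept. Values were tested as log2(FPKM + 1), so fold changes of low genes are understated, for the 11929 genes that averaged 1 FPKM or more. A linear model with a mean for each of the 4 groups (8 residual degrees of freedom) and an intensity trend was fitted with limma 3.58.1 (R 4.3.3), and p-values were adjusted by Benjamini and Hochberg's method over these genes; errors beside log2 fold changes are standard errors. All tests are two-sided. The members, the gene lists and the tests were chosen with earlier results of these data known. All 3 values per group are given for up to 6 called members per comparison and direction, the active-site subunits, activators and inhibitor, the most and least abundant member of each class, and members called in opposite directions. Of other lists, genes were named mainly by adjusted p, with values for up to 4, but not strictly in that order. PSMD3, PSMD14, PSMD5-AS1 and MAFF were named after their values were seen. The alternatives tried were the 6 values compared alone, a filter at 5 FPKM or none, a pseudocount of 0.1, no trend, scaling factors per group, small RNA symbols left out, a fold of 1.5, leaving out each value after a random order and, chosen after seeing the data, a fit without the ZRANB1 siRNA libraries. One gene of the blood and endothelial marker list is not reported here. Pseudogenes were counted by name in GENCODE 29, which is of another build than the files. In all, 12 members had a pseudogene named after them, PSMB3, PSMD4, PSMD8 and PSMD10 among them. Figures used matplotlib 3.10.9 in Python 3.11.15.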

Additional observations from a re-analysis of the deposited data

Results flagged for a closer look

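For 6 of 40 members (15%) the effect of the ZRANB1 siRNA and that of the EZH2 shRNA differed by the test of the difference. By that test 10.5% of all genes tested were called. The call was lost in 14 of 19 other settings for PSME1, in 9 for PSMD7 and in 4 for PSMB7. PSMB10 differed by 1.01 on the log2 scale, with 0.58 for the ZRANB1 siRNA and -0.44 for the EZH2 shRNA. PSME2 differed by 0.50, with 0.26 and -0.24 in the same order. PSMD9 differed by -0.48, with -0.29 and 0.19. PSMD7 differed by 0.42, with 0.058 and -0.36. PSMB7 differed by 0.38, with 0.24 and -0.14. PSME1 differed by 0.29, with 0.015 and -0.27. The kind of delivery is bound up with the target in this difference, and the 2 cannot be told apart. PSMB11, which was too low to be tested, had a single value of 0.174 FPKM in the EZH2 shRNA group, with the other 2 values of that group and all 3 scramble shRNA values listed at 0, and no count stands behind it.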

How the results depend on the processing

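Over 19 alternatives the median log2 fold change of the members ran from -0.13 to -0.033 with the EZH2 shRNA (-0.11 in the report) and from -0.025 to -0.0057 with the ZRANB1 siRNA (-0.024). Between the controls it ran from -0.020 to 0.057 (0.039) and turned negative without small RNA symbols (-0.020) and with 1 scramble shRNA value left out (-0.012). With the EZH2 shRNA, 2 members were called; 0 were called with only the 6 values compared (11 at an unadjusted p below 0.05), 0 at 1.5-fold or more, and 1 to 2 with 1 value left out. With the ZRANB1 siRNA, 5 were called, against 0 at 1.5-fold or more and 1 to 5 with 1 value left out. The 1.5-fold cut was a log2 fold change of 0.58 in size on FPKM + 1. PSMB10 with the ZRANB1 siRNA just missed it at 0.5778, although its ratio of mean FPKM without the added 1 was above 1.5. Between the controls, 23 were called, against 3 at 1.5-fold or more and 19 to 25 with 1 value left out; leaving out small RNA symbols gave 10 higher and 13 lower, against 12 and 11. The control calls of PSMD3, PSMD11, PSMD14, PSMB3 and PSMD2 were lost in 15, 6, 3, 2 and 1 of 21 settings, and the other 18 in none. For the difference of effects, 6 were called, against 3 without small RNA symbols, 1 at 1.5-fold or more and 3 to 6 with 1 value left out. With the settings of the report, 6.41%, 16.6% and 50.6% of all genes tested were called in the EZH2, ZRANB1 and control comparisons. For the difference of effects the share was 10.5%. Shares of all genes under the other settings are not given here, so these counts are no result about the members. Called at 1.5-fold or more is a stricter rule by construction; for the other changes the cause was not tested. Without the ZRANB1 siRNA libraries in the fit, 2 members were called with the EZH2 shRNA and 22 between the controls. No paired analysis was possible because the values of a column belonged to different libraries in different rows, so the replicate numbers followed no library. For the same reason a value left out is a value of each gene and not a library. Depth is unknown and 3 values per group limit the precision.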

Other observations

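Outside the members, genes that make and hand over ubiquitin were read from the same fit. With the scramble siRNA relative to the scramble shRNA, 3 of the 6 ubiquitin and E1 genes rose and 2 fell, where 50.6% of all genes tested were called. RPS27A, which encodes ubiquitin fused to a ribosomal protein, had 846, 942 and 943 FPKM with the scramble siRNA and 481, 552 and 618 with the scramble shRNA (log2 fold change 0.73 ± 0.0906, adjusted p = 4.54e-05). UBA1, the main ubiquitin-activating enzyme, had 85.7, 94.4 and 96.1 FPKM with the scramble siRNA against 139, 149.8 and 152 with the scramble shRNA and fell (log2 fold change -0.67 ± 0.0836, adjusted p = 4.77e-05); UBA6, the other activating enzyme, had a log2 fold change of -0.66 ± 0.149, adjusted p = 0.00334. UBA1 rose with the ZRANB1 siRNA, at 110.1, 117 and 127 FPKM against 85.7, 94.4 and 96.1 with the scramble siRNA (log2 fold change 0.35 ± 0.0836, adjusted p = 0.0136), and this comparison shares the scramble siRNA libraries with the one before. None of the 6 was called with the EZH2 shRNA (limma, 1 of 6 at an unadjusted p below 0.05, against 2558 of all 11929 genes tested).

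Of the 14 tested shuttle factors and enzymes bound to the proteasome, 3 rose and 6 fell between the controls, 1 rose with the ZRANB1 siRNA and none was called with the EZH2 shRNA (limma; 0 of 14 at an unadjusted p below 0.05); of all genes tested, 50.6%, 16.6% and 6.41% were called in these comparisons. The shuttle factors UBQLN4 and UBQLN2 were opposite between the controls. UBQLN4 had 25, 26.9 and 28.8 FPKM with the scramble siRNA and 14, 15.7 and 16.5 with the scramble shRNA (log2 fold change 0.77 ± 0.103, adjusted p = 8.27e-05), and UBQLN2 had 15.5, 16.1 and 16.4 with the scramble siRNA and 22.5, 24.5 and 25.3 with the scramble shRNA (log2 fold change -0.56 ± 0.0799, adjusted p = 0.000129). ZFAND5, which stimulates the proteasome in wasting mouse muscle, fell in the control comparison (log2 fold change -0.83 ± 0.135, adjusted p = 0.000341) and rose in the ZRANB1 comparison, which shares the scramble siRNA libraries (log2 fold change 0.47 ± 0.135, adjusted p = 0.0358). Of 10 tested heat shock genes, 2 fell with the EZH2 shRNA (HSPA8, -0.21 ± 0.0514, adjusted p = 0.036, and DNAJA1, -0.28 ± 0.07, adjusted p = 0.0368), 3 fell with the ZRANB1 siRNA (HSP90AA1, DNAJB1 and HSPA8, with HSP90AA1 at -0.33 ± 0.0846, adjusted p = 0.0213), and 5 rose and 1, HSPA1A, fell between the controls.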
